A study of Mus musculus with 9 samples.

Results

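Prostaglandins and leukotrienes are lipid mediators made from arachidonic acid, and 10 genes of their synthesis, breakdown, and signaling were followed in myeloid cells of dystrophic muscle. The genes were *Pla2g4a*, *Ptgs1*, *Ptgs2*, *Ptges*, *Ptger4*, *Hpgd*, *Alox5*, *Alox5ap*, *Ltc4s*, and *Lta4h*, chosen by symbol and by function from the 50559 genes listed in each count table, and all 10 had enough counts to be tested. RNA was sequenced from CD45+CD11b+ cells, which are leukocytes of the myeloid lineage, sorted from the quadriceps of *mdx* mice, a model of Duchenne muscular dystrophy that lacks dystrophin. Muscles were minced and digested with collagenase before the sort, and the part of this step in the RNA levels was not tested. All groups carried the *mdx* mutation and were 4.5 weeks old at collection, and no WT group was sequenced. For 7 days, mice drank a sucralose-containing MediDrop vehicle, the same vehicle with the mineralocorticoid receptor antagonist spironolactone, or the same vehicle with the glucocorticoid prednisolone. Each group had 3 libraries, each library was a pool of cells from 3 mice, both sexes were present in each group, and dead cells were not separated from live cells in the sort. P values therefore describe the spread between pools and not between single animals.

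Cytosolic phospholipase A2 (*Pla2g4a*) frees arachidonic acid from membranes. The cyclooxygenases (*Ptgs1*, *Ptgs2*) turn it into the prostaglandin precursor, microsomal prostaglandin E synthase 1 (*Ptges*) makes PGE2, the EP4 receptor (*Ptger4*) senses PGE2 on myeloid cells, and 15-hydroxyprostaglandin dehydrogenase (*Hpgd*) inactivates it. On the other branch, 5-lipoxygenase (*Alox5*) with its activating protein FLAP (*Alox5ap*) makes leukotriene A4, which leukotriene A4 hydrolase (*Lta4h*) converts to the neutrophil attractant leukotriene B4 and leukotriene C4 synthase (*Ltc4s*) converts to the cysteinyl leukotrienes. Glucocorticoids are known to act on this pathway in many cell types, through the cyclooxygenases and through annexin A1, and the PGE2 pathway is known to act in muscle repair.

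Between 31469815 and 32943512 counts fell on genes in a library. Levels are given as CPM, which are counts scaled to a common library size with TMM factors, and a gene was called when the edgeR quasi-likelihood test gave an adjusted p under 0.05 over all 16618 genes tested. Macrophage markers were the most abundant of the cell type lists and were present in every library. Their sums were 6270 to 7080 CPM in vehicle, 6780 to 7260 CPM in spironolactone, and 5800 to 6350 CPM in prednisolone libraries. None of the 6 was called by edgeR. An unadjusted p under 0.05 was found for 3 of them between spironolactone and prednisolone, and for 1 between prednisolone and vehicle. Neutrophil markers were uneven, at 590, 894, and 2660 CPM in the vehicle libraries, 918, 1190, and 1950 CPM with spironolactone, and 850, 852, and 674 CPM with prednisolone. With prednisolone against vehicle, 5 of these 6 genes had negative and 1 positive fold changes, from 0.0741-fold for *Ly6g* to 1.02-fold for *Cxcr2*. *Retnlg*, at 0.327-fold, was the 1 gene of the list whose groups did not overlap there. None of the 6 was called by edgeR in any comparison. Markers of cell types outside the gate were also read. Endothelial markers summed to 74.2 to 101 CPM in vehicle, 129 to 179 CPM in spironolactone, and 93.6 to 112 CPM in prednisolone libraries, and *Cdh5* and *Egfl7* were called higher with spironolactone than with prednisolone (adjusted p = 0.0178 and 0.0192). Skeletal muscle markers summed to 160 to 249, 304 to 510, and 257 to 390 CPM, and fibroblast markers to 481 to 664, 628 to 924, and 604 to 656 CPM, in the same order of groups, with none of either list called by edgeR (for spironolactone against vehicle, 3 and 4 had an unadjusted p under 0.05). Their part in the values of the members was not tested. In such bulk samples, fewer cells of a type and less RNA per cell cannot be told apart.

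Called differences fell on a few genes of both branches. With prednisolone, the PGE2 receptor gene *Ptger4* fell to 0.701-fold of vehicle, the prostacyclin receptor gene *Ptgir* rose 1.58-fold, and *Alox15*, which encodes a lipoxygenase of the lipoxin branch, fell to 0.302-fold. *Alox5* was lower with spironolactone than with prednisolone, at 0.667-fold. In that comparison *Dpep2* and *Abcc1* were also lower, at 0.599-fold and 0.644-fold, and *Alox15* and *Hpgds* were higher, at 4.42-fold and 1.65-fold. The calls of *Ptger4*, *Ptgir*, *Alox5*, and *Hpgds* were lost in some of the fits that left out a library. No member was called between spironolactone and vehicle.

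To show the promoters of the 2 members that were called, the 250 bases before the start of the canonical GENCODE transcript were read from GRCm39, 5′ to 3′ on the gene strand, which is the minus strand for both genes. The windows are chr15:5273654-5273903 for *Ptger4* and chr6:116438140-116438389 for *Alox5*. Other annotated *Ptger4* transcripts start further upstream, so that the window's bases nearest to this start lie within the annotated gene. Capitals mark matches, on either strand, to the GC box GGGCGG. The hexamer AGAACA, a core of glucocorticoid receptor motifs, and the AP-1 motif TGANTCA were also searched and had no match in either window.
Ptger4: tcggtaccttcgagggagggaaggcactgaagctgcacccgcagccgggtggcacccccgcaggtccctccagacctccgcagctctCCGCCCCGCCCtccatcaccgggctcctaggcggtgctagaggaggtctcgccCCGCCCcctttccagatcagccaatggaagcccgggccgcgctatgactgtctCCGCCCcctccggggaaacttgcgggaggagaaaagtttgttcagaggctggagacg
Alox5: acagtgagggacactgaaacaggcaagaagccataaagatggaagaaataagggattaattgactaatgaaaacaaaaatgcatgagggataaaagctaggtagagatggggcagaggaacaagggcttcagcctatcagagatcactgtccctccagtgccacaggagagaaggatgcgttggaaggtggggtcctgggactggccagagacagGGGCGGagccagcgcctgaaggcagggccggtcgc
The *Ptger4* window held 4 GC boxes, of which 2 shared bases. The *Alox5* window held 1 GC box, 35 bases before the start. Of 21751 promoters of the same length, 36.3% held the GC box, 14.3% AGAACA, and 6.17% the AP-1 motif. A match is only a run of letters, and binding was not measured.

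Compared per gene length as TPM, a share of all transcripts, the members spanned a wide range in vehicle libraries. *Alox5ap* (543 ± 41.4 TPM, SD, n = 3) and *Ptgs2* (537 ± 86.4 TPM) were far above the others. *Ltc4s* (52.0 ± 8.19 TPM), *Ptger4* (44.4 ± 7.04 TPM), *Hpgd* (36.2 ± 5.20 TPM), *Lta4h* (32.7 ± 2.25 TPM), and *Alox5* (32.3 ± 2.35 TPM) followed, with each neighbor in this order closer than the sum of their SDs. *Ptgs1* (20.0 ± 4.78 TPM), *Pla2g4a* (10.7 ± 1.47 TPM), and *Ptges* (1.48 ± 0.365 TPM) were lower, each apart from its neighbors by more than that sum. The order among the members was thus FLAP and inducible cyclooxygenase high, and the microsomal PGE2 synthase gene *Ptges* low. This does not hold for every prostaglandin E synthase gene. *Ptges3*, for a cytosolic prostaglandin E synthase that is not a member, was at 125 TPM in vehicle libraries. With lengths of the longest transcript in place of all exons, *Ptger4* came to 57.2 TPM and stood above *Ltc4s* at 55.0 TPM.

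**Figure D1:**
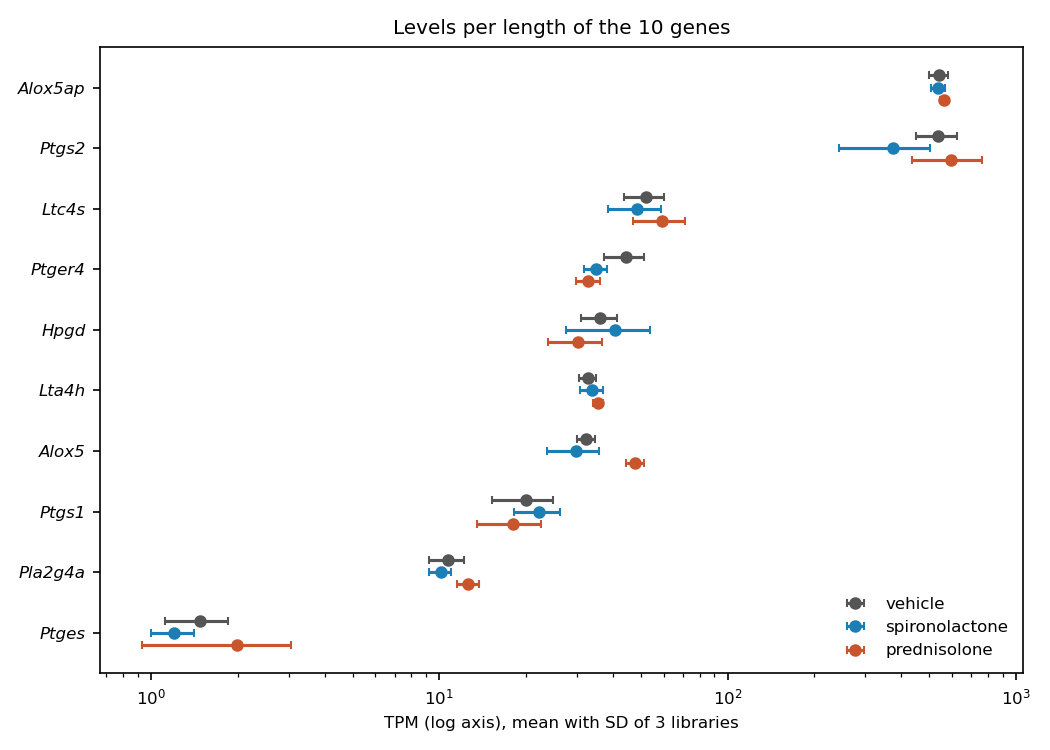
Mean level of each of the 10 genes in TPM (horizontal log axis) with the SD of 3 libraries, in vehicle, spironolactone, and prednisolone groups. *Alox5ap* and *Ptgs2* lie at the top and *Ptges* lies at the bottom, between 1.20 and 1.99 TPM in the 3 groups.

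With prednisolone, 1 of the 10 members was called, and it was lower than vehicle. Of all genes tested, 1.76% were called in this comparison, 1% higher and 0.758% lower. Without adjustment 2 members had a p under 0.05, against 14.2% of all genes, and 2 members had groups that did not overlap, against 19.7% of all genes. The median log2 fold change of the members was 0.05, beside -0.01 for all genes. With spironolactone, 0 of the 10 members were called, against 0.0181% of all genes, of which all were higher (0.0181%) and 0% were lower. Here, *Ptger4* was the 1 member with an unadjusted p under 0.05, against 9.29% of all genes, and the 1 member whose groups did not overlap, against 13.5% of all genes. DESeq2 on the same libraries also called 0 members between spironolactone and vehicle. Between spironolactone and prednisolone, 1 member was called, against 5.17% of all genes (2.38% higher and 2.79% lower with spironolactone). The same member, *Alox5*, was the only one with an unadjusted p under 0.05, against 22.5% of all genes, and the only one whose groups did not overlap, against 30.3% of all genes. The 3 comparisons share libraries, since vehicle stands in both comparisons with a drug, so that they are not independent of each other.

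**Figure D2:**
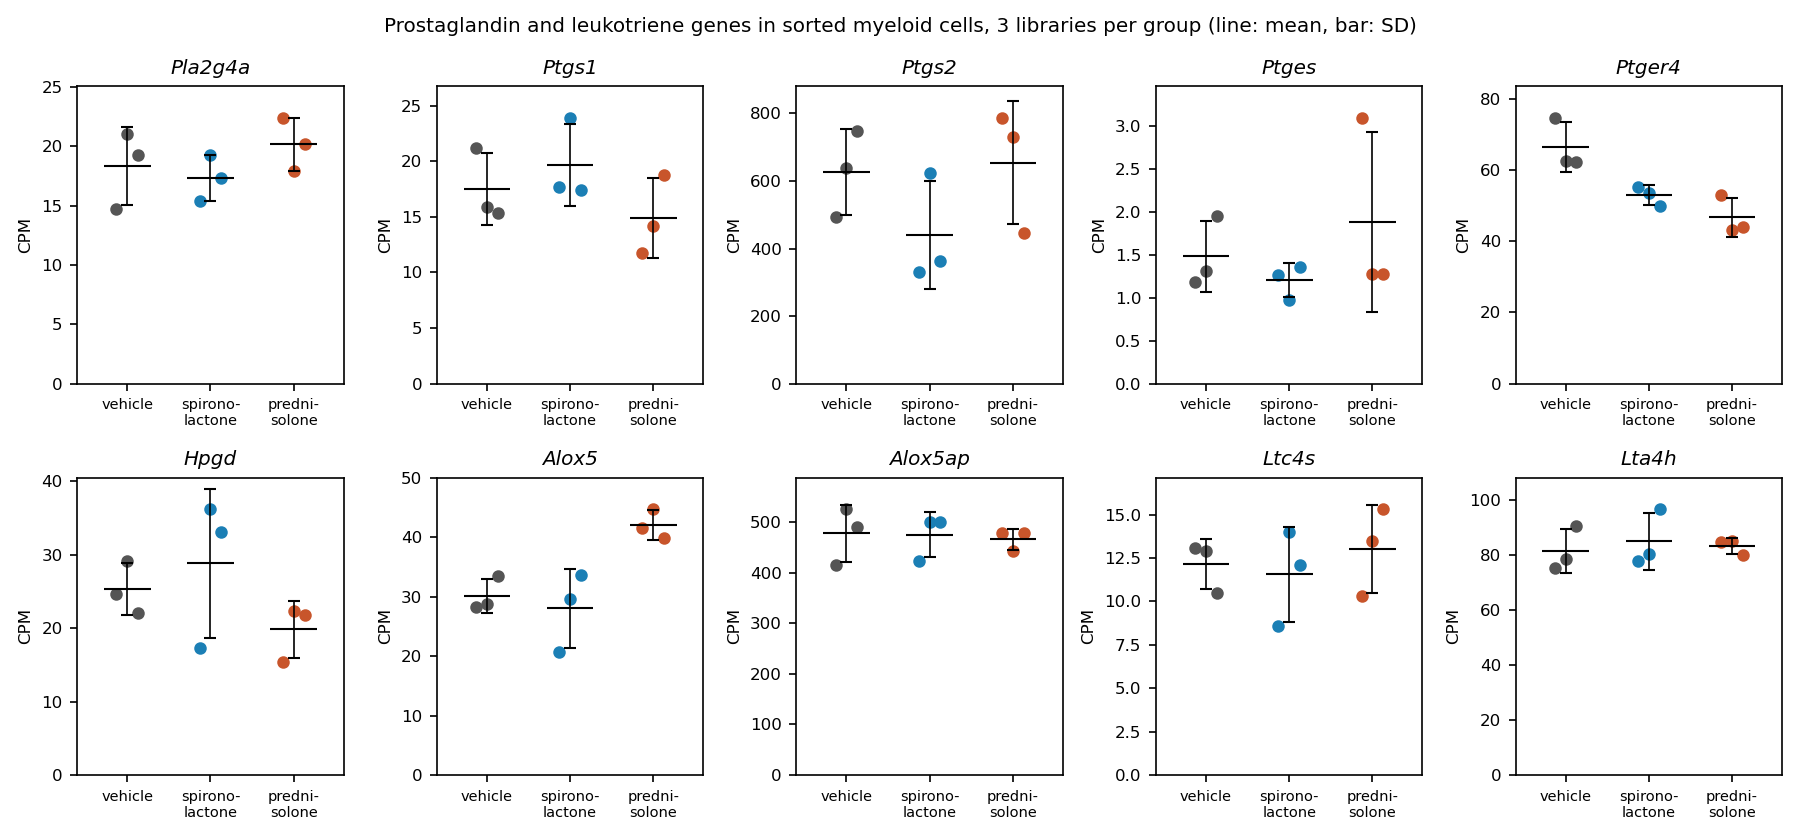
Level of each member in CPM (vertical axes from 0) in each of the 3 vehicle, 3 spironolactone, and 3 prednisolone libraries, with the mean (line) and SD (bar). *Ptger4* was higher in every vehicle library than in any treated library, and *Alox5* was higher in every prednisolone library than in any other.

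*Pla2g4a* (chr1:149705369-149837053, minus strand), at the head of the pathway, lies near *Ptgs2* (chr1:149975194-149983978, plus strand) on GRCm39. It was at 14.7 to 21.0 CPM in vehicle, 15.4 to 19.3 CPM in spironolactone, and 17.9 to 22.4 CPM in prednisolone libraries. The groups overlapped. Prednisolone gave a log2 fold change of 0.14 ± 0.14 (SE, adjusted p = 0.733), and spironolactone gave -0.08 ± 0.14 (adjusted p = 0.917).

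The constitutive cyclooxygenase gene *Ptgs1* was at 21.2, 15.9, and 15.3 CPM in vehicle, 17.7, 23.9, and 17.4 CPM in spironolactone, and 11.7, 14.2, and 18.8 CPM in prednisolone libraries. Its lowest value was in a prednisolone library and its highest in a spironolactone library, but all groups overlapped. The difference between the drugs, a log2 fold change of 0.40 ± 0.19 for spironolactone over prednisolone, did not pass the test (adjusted p = 0.237, 95% CI -0.0118 to 0.809).

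The inducible cyclooxygenase gene *Ptgs2* was at 493, 639, and 747 CPM in vehicle, 331, 623, and 364 CPM in spironolactone, and 787, 730, and 447 CPM in prednisolone libraries. A pair of the spironolactone libraries were below every other library, while the third lay within the vehicle range, and 1 prednisolone library was below all vehicle libraries. Prednisolone gave a log2 fold change of 0.06 ± 0.30 (adjusted p = 0.952, 95% CI -0.623 to 0.751), and spironolactone gave -0.51 ± 0.30 (adjusted p = 0.665, 95% CI -1.20 to 0.177). Spironolactone against prednisolone gave -0.58 ± 0.30 (adjusted p = 0.304). With 3 libraries a group, these intervals were among the widest of the members. The fit without the low-count filter placed *Ptgs2* past the threshold in both comparisons with spironolactone (adjusted p = 0.000686 and 1.06e-05), at a log2 fold change of nearly the same size. An antisense gene that overlaps *Ptgs2*, *Ptgs2os*, had 0 to 4 counts.

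*Ptges*, for the PGE2 synthase coupled to *Ptgs2*, had 31 to 102 counts per library and was at 1.19, 1.31, and 1.96 CPM in vehicle, 1.27, 0.980, and 1.36 CPM in spironolactone, and 3.10, 1.28, and 1.28 CPM in prednisolone libraries. A single prednisolone library was high and the other two lay within the vehicle range. No difference was called, with a log2 fold change of 0.34 ± 0.39 with prednisolone and -0.30 ± 0.40 with spironolactone, and without prednisolone library 1 the former was -0.21.

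*Ptger4* (chr15:5236142-5273673, minus strand), for the EP4 receptor, was at 74.7, 62.6, and 62.4 CPM in vehicle, 55.3, 53.6, and 49.9 CPM in spironolactone, and 52.9, 43.2, and 44.0 CPM in prednisolone libraries. All 6 treated libraries lay below all 3 vehicle libraries. *Ptger4* fell by 0.51 ± 0.11 on the log2 scale with prednisolone (adjusted p = 0.0256, 95% CI -0.737 to -0.287). The log2 fold change with spironolactone was -0.33 ± 0.10 and did not pass the test (adjusted p = 0.290, 95% CI -0.554 to -0.106), and the difference between the drugs was not called either (0.18 ± 0.11, adjusted p = 0.330). The prednisolone call was lost without vehicle library 2 (adjusted p = 0.0522), prednisolone library 2 (adjusted p = 0.156), or prednisolone library 3 (adjusted p = 0.114). *Ttc33*, which overlaps *Ptger4* on the opposite strand, had 383 to 472 counts, beside 1413 to 2456 for *Ptger4*, and the strand setting of the counting is not given in the sources used here.

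*Hpgd*, for the enzyme that inactivates PGE2, was at 24.7, 29.2, and 22.1 CPM in vehicle, 17.3, 36.2, and 33.1 CPM in spironolactone, and 15.4, 22.3, and 21.8 CPM in prednisolone libraries. The spironolactone group was split, with 1 library below all vehicle libraries and the other two above them. Spironolactone over prednisolone gave a log2 fold change of 0.54 ± 0.25 (adjusted p = 0.245), which was called only without spironolactone library 1 (adjusted p = 0.0186) or without the low-count filter (adjusted p = 0.00156) among the fits run. Against vehicle, the values were -0.35 ± 0.25 with prednisolone and 0.19 ± 0.25 with spironolactone, neither of them called.

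In the leukotriene branch, *Alox5* (chr6:116387032-116438139, minus strand) was at 28.3, 28.7, and 33.5 CPM in vehicle, 20.7, 29.7, and 33.7 CPM in spironolactone, and 41.6, 44.7, and 39.8 CPM in prednisolone libraries. The prednisolone libraries were above the other 6, and the vehicle and spironolactone groups overlapped. *Alox5* was lower with spironolactone than with prednisolone by a log2 fold change of -0.58 ± 0.15 (adjusted p = 0.0376, 95% CI -0.900 to -0.267). Against vehicle, prednisolone gave 0.48 ± 0.15 (adjusted p = 0.134, 95% CI 0.162 to 0.793) and spironolactone gave -0.11 ± 0.15 (adjusted p = 0.889). The call between the drugs was lost without spironolactone library 1 or 2 (adjusted p = 0.0601 and 0.0808) or without prednisolone library 1, 2, or 3 (adjusted p = 0.112, 0.135, and 0.0762), while the comparison of prednisolone with vehicle passed without spironolactone library 1 (adjusted p = 0.0299), with only those 2 groups in the fit (adjusted p = 0.0482), or without the low-count filter (adjusted p = 0.00199).

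*Alox5ap*, for the partner of 5-lipoxygenase, was at 416, 525, and 491 CPM in vehicle, 423, 501, and 500 CPM in spironolactone, and 478, 442, and 478 CPM in prednisolone libraries. The 3 groups overlapped, and the log2 fold change was -0.03 ± 0.11 with prednisolone (95% CI -0.263 to 0.195) and -0.0077 ± 0.11 with spironolactone (95% CI -0.237 to 0.221).

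The enzymes below leukotriene A4 also had overlapping groups. *Lta4h* ranged from 75.1 to 90.5 CPM in vehicle, 77.7 to 96.5 CPM in spironolactone, and 79.9 to 85.1 CPM in prednisolone libraries, with a log2 fold change of 0.03 ± 0.10 with prednisolone and 0.06 ± 0.10 with spironolactone. *Ltc4s* was at 10.5 to 13.1, 8.57 to 14.0, and 10.3 to 15.3 CPM in the same order of groups, with log2 fold changes of 0.10 ± 0.19 and -0.07 ± 0.19. The adjusted p was at least 0.646 for both genes in the 3 comparisons.

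**Figure D3:**
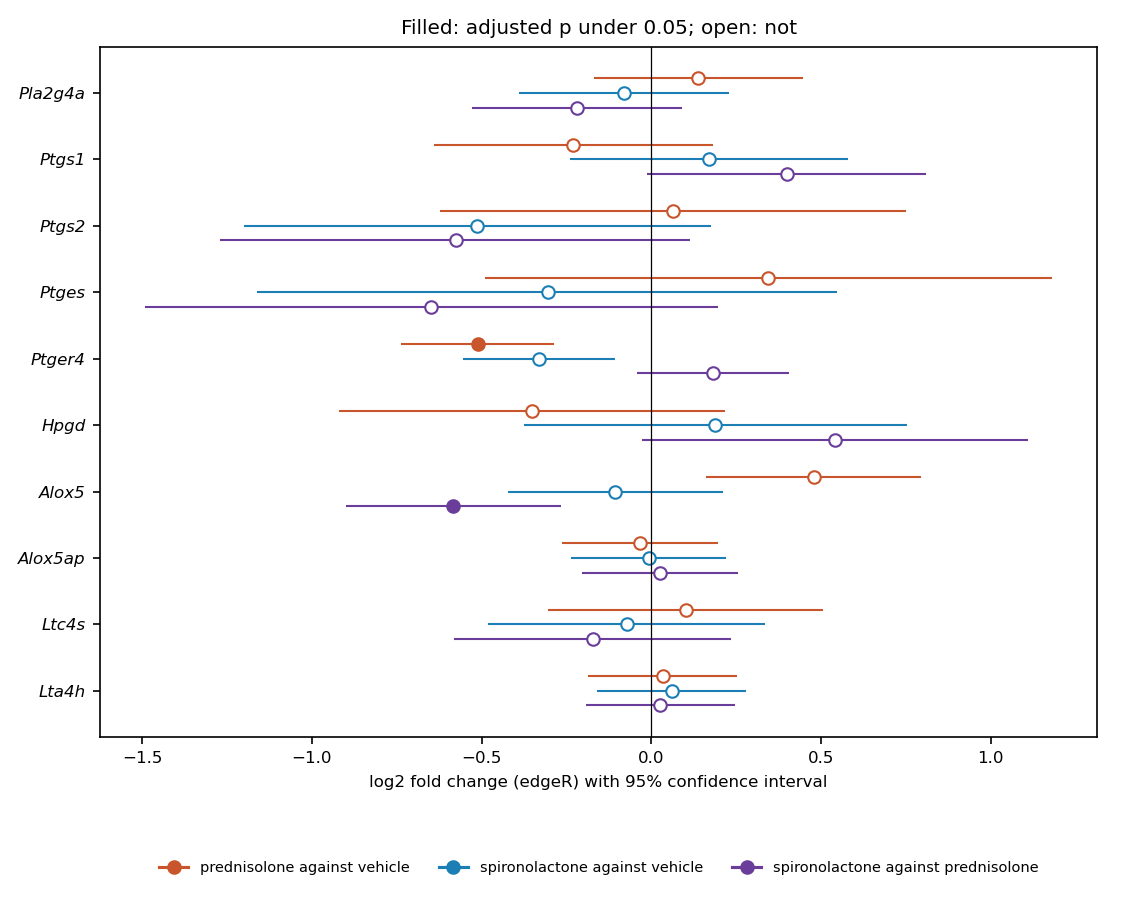
Log2 fold change (horizontal axis) with its 95% confidence interval for each member in the 3 comparisons, with filled points where the adjusted p was under 0.05. The filled points are *Ptger4* for prednisolone against vehicle (-0.51) and *Alox5* for spironolactone against prednisolone (-0.58), and the intervals of *Ptgs2* and *Ptges* are the widest.

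Beyond these members, 43 other genes of the same pathways were listed, of which 32 had enough counts to be tested. With prednisolone, 2 of 32 were called by edgeR (all genes, 1.76%), 1 higher and 1 lower, 9 had an unadjusted p under 0.05 (all genes, 14.2%), and the median log2 fold change was 0.05. With spironolactone, 0 of 32 were called by edgeR (all genes, 0.0181%) or by DESeq2, 2 had an unadjusted p under 0.05 (all genes, 9.29%), and the median was 0.03. Between spironolactone and prednisolone, 4 of 32 were called by edgeR (all genes, 5.17%), 2 higher and 2 lower, 9 had an unadjusted p under 0.05 (all genes, 22.5%), and the median was -0.03 (all genes, 0.03). By role, the calls with prednisolone against vehicle fell on 1 of 3 prostanoid receptors tested and 1 of 9 leukotriene and lipoxin genes (all genes, 1.76%). Between the drugs, they fell on 1 of 8 prostanoid synthases and 3 of 9 leukotriene and lipoxin genes (all genes, 5.17%). In none of the comparisons did a call fall on the 5 phospholipase and annexin genes, the 4 transport and breakdown genes, or the 3 leukotriene receptors. Of the 8 further prostanoid receptors listed, 5 were below the low-count filter.

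*Alox15* encodes a lipoxygenase that makes 15-lipoxygenase and 12-lipoxygenase products, including precursors of lipoxins. It was at 70.9, 61.8, and 49.6 CPM in vehicle, 64.5, 80.2, and 99.0 CPM in spironolactone, and 14.9, 16.0, and 24.2 CPM in prednisolone libraries. Every prednisolone library was far below the lowest library of the other groups. *Alox15* fell by 1.73 ± 0.22 on the log2 scale with prednisolone (adjusted p = 0.00545), and was higher with spironolactone than with prednisolone by 2.14 ± 0.22 (adjusted p = 0.00124), in all 7 alternative fits and all 9 fits that left out a library. Spironolactone against vehicle gave 0.42 ± 0.21, which did not pass (adjusted p = 0.589, 95% CI -0.0511 to 0.886). Among the fits run, this comparison passed only without the low-count filter (adjusted p = 0.0131). The direction of *Alox15* against vehicle with prednisolone was thus opposite to that of *Alox5*, though only *Alox15* passed the test there.

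*Hpgds*, for the hematopoietic synthase of prostaglandin D2, was at 80.1, 52.4, and 57.7 CPM in vehicle, 85.1, 65.7, and 65.7 CPM in spironolactone, and 47.7, 38.8, and 44.6 CPM in prednisolone libraries. The prednisolone libraries were below all others. *Hpgds* was higher with spironolactone than with prednisolone by 0.72 ± 0.16 on the log2 scale (adjusted p = 0.0237), a call lost without spironolactone library 1 or 3 or any 1 of the prednisolone libraries (adjusted p = 0.0555 to 0.0968). Prednisolone against vehicle gave -0.54 ± 0.16, which edgeR did not call (adjusted p = 0.123) but which passed with DESeq2 (0.0292), with the replicate block (0.0138), and without the filter (0.000322).

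Eosinophils and mast cells are among the cells known to carry *Alox15* or *Hpgds*, and their markers also differed between groups. Both marker lists were far below the macrophage list, which summed to 5800 to 7260 CPM over the libraries. The 5 eosinophil markers summed to 37.6, 37.9, and 69.4 CPM in vehicle, 29.7, 48.0, and 49.6 CPM in spironolactone, and 17.3, 21.5, and 22.1 CPM in prednisolone libraries. In vehicle library 3, *Prg2*, *Epx*, and *Ear6* were at 23.3, 9.13, and 5.08 CPM, against 0.0304 to 0.905 CPM in the other vehicle libraries. *Siglecf* and *Ccr3* were at 21.3 to 24.5 and 10.5 to 14.8 CPM in vehicle libraries. Among vehicle libraries, *Alox15* was lowest in library 3 (49.6 CPM), where the eosinophil sum was highest. Of the eosinophil markers, *Siglecf* and *Ccr3* fell with prednisolone (adjusted p = 0.0377 and 0.0128) and were higher with spironolactone than with prednisolone (adjusted p = 0.0217 and 0.00205). *Prg2* and *Ear6* were not called, and *Epx*, the eosinophil peroxidase gene, was below the filter with 0 to 9.13 CPM. The 6 mast cell and basophil markers summed to 5.78 to 8.82 CPM in vehicle, 13 to 44.6 CPM in spironolactone, and 9.32 to 17.2 CPM in prednisolone libraries, with 0 called in any comparison (4 had an unadjusted p under 0.05 for spironolactone against vehicle) and *Mcpt8* and *Ms4a2* at or near 0. Resident-like macrophage markers summed to 577 to 752, 608 to 721, and 733 to 779 CPM in the same order of groups, and *Lyve1* and *Cd163* were lower with spironolactone than with prednisolone (adjusted p = 0.0338 and 0.0448). Of the other resident-like markers, *Mrc1* and *Timd4* gave -0.24 and -1.19 on the log2 scale in that comparison and *Folr2* gave 0.22, none of them called. Against vehicle, *Lyve1*, *Cd163*, and *Timd4* were 2.70-fold, 1.81-fold, and 2.12-fold with prednisolone, with no overlap but not called (adjusted p = 0.0816, 0.0992, and 0.285), and 0.895-fold, 0.955-fold, and 0.928-fold with spironolactone. On the log2 scale, *Mrc1* and *Folr2* gave 0.21 and 0.0010 with prednisolone and -0.04 and 0.22 with spironolactone, none of them called. Dendritic cell markers summed to 53.9 to 63.3 CPM in vehicle, 67.8 to 115 CPM in spironolactone, and 75.3 to 92.5 CPM in prednisolone libraries, with none of 5 called by edgeR (3 had an unadjusted p under 0.05 with each drug against vehicle). Lymphocyte markers were low, at 2.25 to 4.02, 3.13 to 8.52, and 0.942 to 1.90 CPM in the same order of groups, and 1 of 5, *Nkg7*, was called, higher with spironolactone than with prednisolone (adjusted p = 0.00846). Monocyte markers summed to 957 to 2080, 1300 to 1570, and 1690 to 2190 CPM with none of 5 called, and against vehicle with prednisolone 2 of the 5 had positive and 3 negative fold changes, from 0.495-fold for *Plac8* and 0.559-fold for *Ly6c2* to 1.91-fold for *Chil3* (adjusted p = 0.447, 0.500, and 0.321). The part of these cells in the values of *Alox15*, *Hpgds*, *Alox5*, and the other called genes was not tested.

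*Ptgir*, for the prostacyclin receptor, was at 14.5, 20.2, and 20.7 CPM in vehicle, 20.0, 23.0, and 23.1 CPM in spironolactone, and 28.9, 28.4, and 30.3 CPM in prednisolone libraries. The prednisolone libraries lay close together and above all others. *Ptgir* rose with prednisolone by 0.66 ± 0.13 on the log2 scale (adjusted p = 0.0208), where *Ptger4*, a receptor that also couples to cyclic AMP, fell. The call was lost without prednisolone library 1, 2, or 3 (adjusted p = 0.0662, 0.101, and 0.0836). Spironolactone gave 0.26 ± 0.13 against vehicle (adjusted p = 0.580) and -0.41 ± 0.13 against prednisolone (edgeR adjusted p = 0.0835), which passed with DESeq2 (0.0448), without the filter (0.0216), with 2 groups in the fit (0.0191), and without vehicle library 1 (0.0137).

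A pair of genes for the handling of cysteinyl leukotrienes were lower with spironolactone than with prednisolone. *Dpep2*, for a dipeptidase that converts leukotriene D4 to E4, was at 186, 267, and 227 CPM in vehicle, 184, 195, and 193 CPM in spironolactone, and 269, 349, and 335 CPM in prednisolone libraries. *Abcc1*, for an exporter of leukotriene C4, was at 112, 98.6, and 109 CPM in vehicle, 88.4, 93.6, and 78.8 CPM in spironolactone, and 147, 126, and 132 CPM in prednisolone libraries. Both genes were highest in the prednisolone group with no overlap, and the spironolactone libraries of *Abcc1* were also below all vehicle libraries. Between spironolactone and prednisolone the log2 fold change was -0.74 ± 0.13 for *Dpep2* (adjusted p = 0.00729) and -0.63 ± 0.10 for *Abcc1* (adjusted p = 0.00331), called in all 7 alternative fits and all 9 fits that left out a library. Against vehicle, edgeR called neither gene with prednisolone (0.49 ± 0.13 and 0.34 ± 0.10, adjusted p = 0.0782 and 0.0921) or spironolactone (-0.25 ± 0.13 and -0.29 ± 0.10, adjusted p = 0.581 and 0.311). With prednisolone against vehicle, DESeq2 called both *Dpep2* (adjusted p = 0.0103) and *Abcc1* (adjusted p = 0.036), as did the fit without the filter (0.000455 and 0.0319), and the replicate block gave 0.0202 and 0.0836. *Dpep2* also passed without vehicle library 2 (0.0469) and *Abcc1* without vehicle library 1 (0.0387). *Dus2*, which overlaps *Dpep2* on the opposite strand, had 232 to 363 counts, beside 5800 to 11413 for *Dpep2*.

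**Figure D4:**
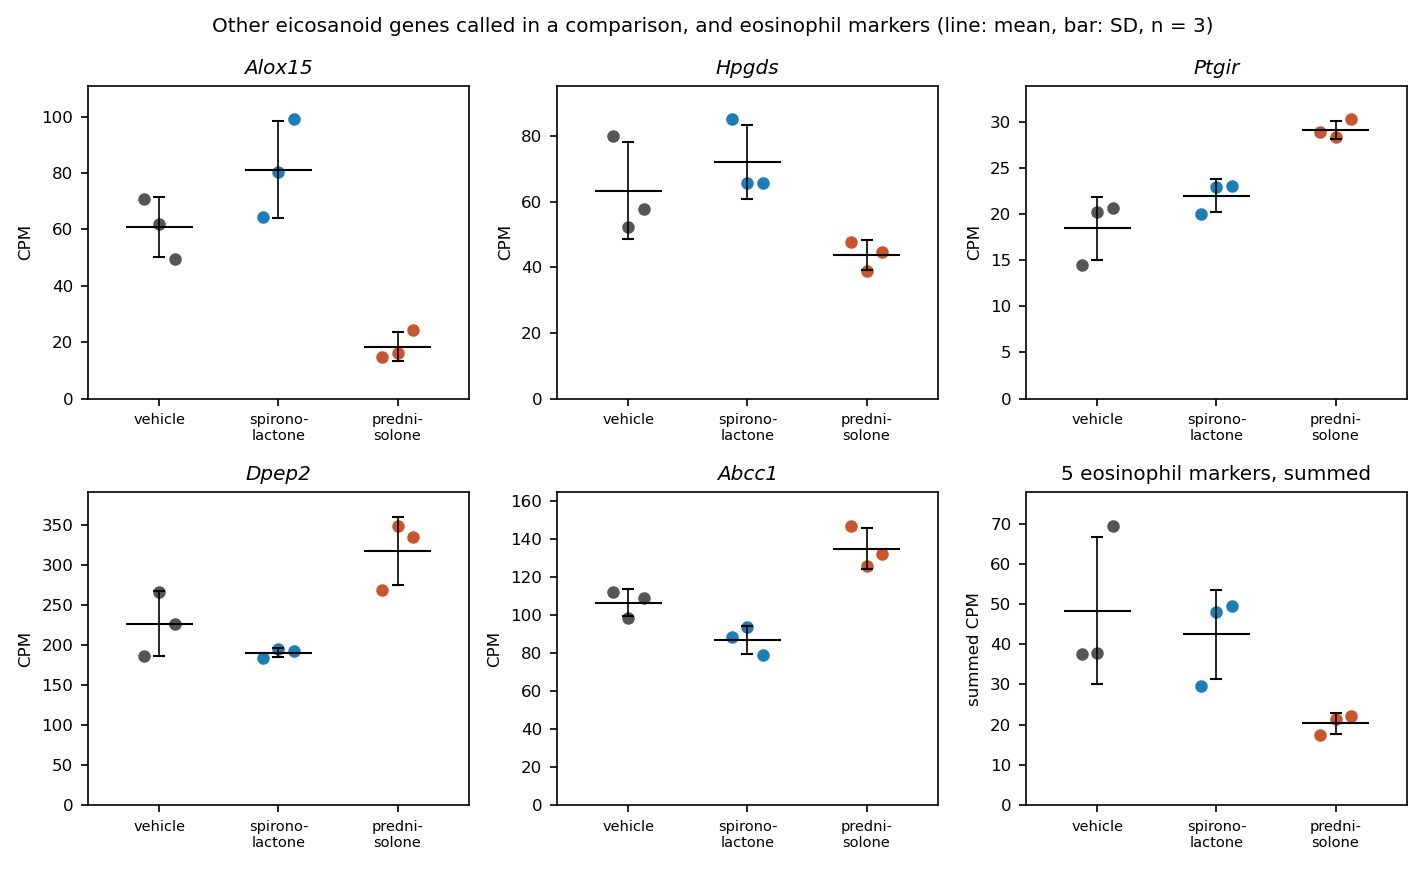
Level in CPM (vertical axes from 0) of *Alox15*, *Hpgds*, *Ptgir*, *Dpep2*, and *Abcc1* and the summed CPM of 5 eosinophil markers in each library of the 3 groups, with the mean (line) and SD (bar). *Alox15*, *Hpgds*, and the eosinophil markers are lowest with prednisolone, and *Ptgir*, *Dpep2*, and *Abcc1* are highest.

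Apart from *Ptgir*, the most abundant gene of each role, by mean TPM over the 9 libraries, was not called by edgeR in the 3 comparisons. *Anxa1*, for the glucocorticoid-linked protein annexin A1 that restrains phospholipase A2, was at 567 to 808 CPM in vehicle, 585 to 749 CPM in spironolactone, and 667 to 803 CPM in prednisolone libraries, with a log2 fold change of 0.10 ± 0.13 with prednisolone (adjusted p = 0.806, 95% CI -0.188 to 0.385). *Ptges3*, for a cytosolic prostaglandin E synthase that also serves as a chaperone partner, was the most abundant of the synthases with a known length (122 TPM) and gave -0.05 ± 0.14. *Ptgr1*, for a reductase that inactivates prostaglandins and leukotriene B4, gave -0.09 ± 0.11. *Ltb4r1*, for the high-affinity leukotriene B4 receptor, was at 18.9 to 37.5 CPM in vehicle libraries alone and gave 0.04 ± 0.30. *Cyp4f18*, for a leukotriene B4 hydroxylase of myeloid cells, was at 167, 213, and 171 CPM in vehicle, 150, 219, and 195 CPM in spironolactone, and 121, 133, and 159 CPM in prednisolone libraries. Its prednisolone libraries lay below all vehicle libraries, but the log2 fold change of -0.42 ± 0.15 did not pass the test (adjusted p = 0.206). Among the fits run, that comparison passed only without the low-count filter (adjusted p = 0.0135). Spironolactone over prednisolone gave 0.45 ± 0.15 for *Cyp4f18* (edgeR adjusted p = 0.0937), which passed with DESeq2 (0.0379), with the replicate block (0.0346), without the filter (0.00293), and without spironolactone library 1 (0.0294).

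**Figure D5:**
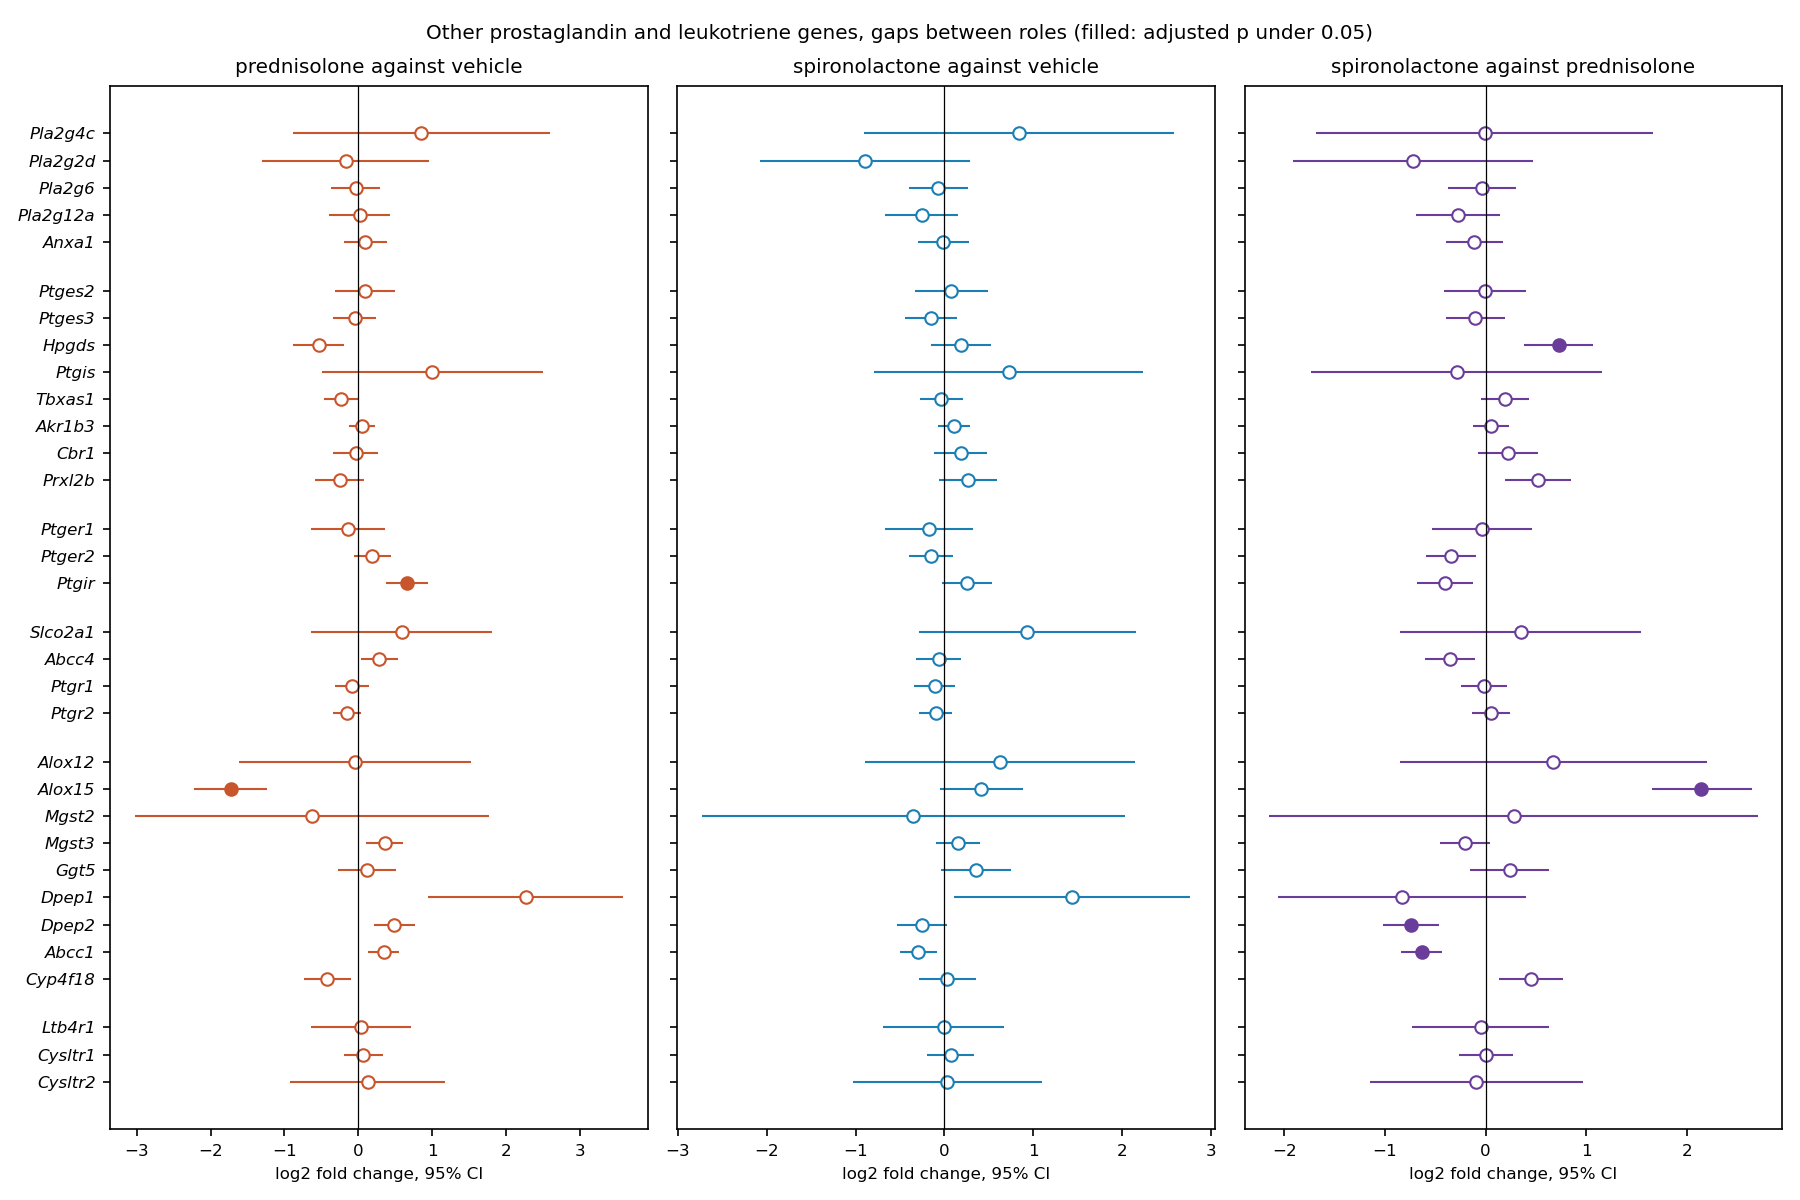
Log2 fold change (horizontal axes) with 95% confidence interval for the 32 other tested pathway genes, grouped by role, in the 3 comparisons, with filled points where the adjusted p was under 0.05. *Alox15* and *Ptgir* are filled for prednisolone against vehicle, none for spironolactone against vehicle, and *Alox15*, *Hpgds*, *Dpep2*, and *Abcc1* for spironolactone against prednisolone.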

How the data were processed

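RNA-Seq of sorted CD45+CD11b+ cells of 3 groups was analyzed, with groups taken from the sample labels. The authors deposited raw read counts per gene, whole numbers without normalization. The submitters' processing notes name HISAT2 2.2.1, HTSeq 0.11.3, DESeq2 1.32.0, and the genome build mm39. Strand setting and annotation release are not given in the sources used here. Tables of the authors' own comparisons (fold changes and p-values) were not used. Lines that name no gene (17.2% to 21.8% of each file's total) were left out.

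The quasi-likelihood F test of edgeR 4.0.16 (R 4.3.3, limma 3.58.1) was run two-sided with TMM, robust=TRUE, and all 9 libraries in one fit, on genes kept by filterByExpr (minimum count 10, minimum total 15), which left out 33941 genes, with Benjamini-Hochberg adjustment. SEs were taken from the fold change and F. The biological coefficient of variation was 0.17. Libraries of a group differed beyond sampling noise (chi-square over degrees of freedom, 18 to 57.8). TPM used summed exon lengths of GENCODE genes on GRCm39 (40303 symbols matched, at least 91% of counts). *Akr1b3* had no matching length. Promoter windows were read from the same genome.

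Members and lists were chosen with earlier results of these data known. Named beyond the members are pathway genes called in any comparison, the most abundant by TPM of each role, and cell type markers. Alternatives were DESeq2 1.42.0, RLE, no filter, robust=FALSE, a filter of 10 counts in each library, 2 groups per fit, a replicate block, and leaving out each library. The scripts were tested on simulated data.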

Additional observations from a re-analysis of the deposited data

How the results depend on the processing

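Over the 10 members and the 10 other named pathway genes in the 3 comparisons, 398 fold changes stayed on the same side of the threshold and in the same direction over the 7 alternative fits, 21 passed the threshold where they had not, and 1 changed sign, that of *Ltb4r1* with spironolactone (0.0027 with the replicate block). With prednisolone, 293 genes were called against vehicle, 684 by DESeq2, 1019 without the low-count filter, and 69 to 826 when 1 library was left out. Of the members, 1 was called, 2 without the filter, 2 with only 2 groups in the fit, and 0 to 2 when 1 library was left out. Of the other pathway genes, 2 were called, 6 by DESeq2, 7 without the filter, 4 with the replicate block, and 1 to 4 when 1 library was left out. With spironolactone against vehicle, 3 genes were called, 263 by DESeq2, 528 without the filter, 8 with the replicate block, 0 with robust=FALSE, and 0 to 34 when 1 library was left out, and without the filter 1 member and 2 other pathway genes were called. Between the drugs, 859 genes were called, 1594 by DESeq2, 1940 without the filter, 1598 with 2 groups in the fit, and 232 to 1898 when 1 library was left out. The members called were 1, 3 without the filter, and 0 to 1 when 1 library was left out, and the other pathway genes called were 4, 7 by DESeq2, 7 without the filter, and 3 to 7 when 1 library was left out. The causes of these shifts were not tested. *Ptger4* with prednisolone had an adjusted p of 0.000783 to 0.0491 over the 7 alternatives, and *Alox5* between the drugs 4.07e-05 to 0.0436.

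Among the same 20 genes, log2 fold changes that changed sign when 1 library was left out were all uncalled. Markers and *Dpep1* are not in these counts. With prednisolone, these ranged for *Alox5ap* from -0.123 to 0.0417, *Anxa1* -0.0149 to 0.246, *Lta4h* -0.021 to 0.119, *Ltb4r1* -0.207 to 0.230, *Ltc4s* -0.0267 to 0.244, *Ptges* -0.214 to 0.596, *Ptges3* -0.207 to 0.0733, and *Ptgs2* -0.0888 to 0.277. With spironolactone, they ranged for *Alox5* from -0.260 to 0.0709, *Alox5ap* -0.099 to 0.0693, *Anxa1* -0.128 to 0.126, *Cyp4f18* -0.0902 to 0.175, *Hpgd* -0.0087 to 0.451, *Lta4h* -0.0439 to 0.138, *Ltb4r1* -0.259 to 0.189, *Ltc4s* -0.234 to 0.103, and *Pla2g4a* -0.218 to 0.029. Between the drugs, they ranged for *Alox5ap* from -0.0158 to 0.102, *Lta4h* -0.0777 to 0.086, *Ltb4r1* -0.230 to 0.146, *Ltc4s* -0.335 to 0.0019, and *Ptgr1* -0.111 to 0.0614.

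No pairing was taken from the replicate numbers, since deviations of same-numbered libraries had correlations of 0.117, 0.0048, and 0.151 between vehicle and spironolactone but -0.0097, -0.0197, and -0.038 between vehicle and prednisolone, and not every library correlated best with its own number. Depth limits *Ptges* most among the members.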

Other observations

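The balance of the lipoxygenase genes differed between groups within each library. The log2 ratio of *Alox5* to *Alox15* in CPM was -1.33, -1.11, and -0.57 in vehicle, -1.64, -1.44, and -1.55 in spironolactone, and 1.49, 1.48, and 0.72 in prednisolone libraries. CPM are not corrected for length, so that these ratios compare groups and not the levels of the 2 genes. The log2 ratio of *Ptgir* to *Ptger4* was -2.36, -1.63, and -1.59 in vehicle, -1.47, -1.22, and -1.11 in spironolactone, and -0.87, -0.60, and -0.54 in prednisolone libraries, and the 3 groups did not overlap. The log2 ratio of *Alox5ap* to *Alox5* was lowest with prednisolone, at 3.31 to 3.59, against 3.87 to 4.19 in vehicle and 3.89 to 4.35 in spironolactone libraries. The log2 ratio of *Ptgs2* to *Ptgs1* (4.54 to 5.61 in vehicle, 4.23 to 4.70 in spironolactone, and 4.57 to 6.08 in prednisolone libraries) and that of *Lta4h* to *Ltc4s* (2.52 to 3.11, 2.52 to 3.18, and 2.39 to 3.04) overlapped between groups. These 5 ratios were chosen with the values of the genes known and were not tested.

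*Dpep1*, a dipeptidase related to *Dpep2* and chosen here after its values were seen, was at 0.304, 0.686, and 0.873 CPM in vehicle, 3.26, 0.917, and 0.887 CPM in spironolactone, and 2.22, 5.04, and 1.75 CPM in prednisolone libraries. Every treated library was above every vehicle library, at 10 to 28 counts in vehicle and 28 to 165 counts in treated libraries, and the log2 fold change was 2.27 ± 0.61 with prednisolone (edgeR, adjusted p = 0.0921) and 1.44 ± 0.61 with spironolactone (adjusted p = 0.500), neither of them called by edgeR. *Dpep1* was called with prednisolone by DESeq2, without the low-count filter, and without spironolactone library 1, and with spironolactone without the low-count filter.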
